A study of Mus musculus with 12 samples.

Results

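The genes described here are 40 mouse genes of the mitotic spindle and of the G2/M transition. They were taken from a fixed list of symbols, matched to the Entrez gene IDs of the deposited tables, and they are 40 of the 15802 genes that both tables list. All 40 passed the filter on low counts and are among the 11707 genes tested. The libraries are RNA sequencing of mTECs, a mouse renal tubular epithelial cell line, in 4 groups of 3 libraries each. KD+TGF-β1 libraries come from FH-silenced cells given TGF-β1, a growth factor known for its role in kidney fibrosis, and NC+TGF-β1 libraries from control cells given it. KD libraries are FH-silenced cells and NC libraries control cells, both without the cytokine. The labels name 1 cell line and give neither the silencing reagent nor the dose or duration of TGF-β1. They do not say whether replicates are separate cultures, so the p-values measure only the spread between these samples, which may be technical. The basal and the TGF-β1 libraries were deposited in separate tables, so an effect of TGF-β1 and a difference between the 2 tables cannot be told apart.

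Entry into mitosis is driven by the kinase CDK1 bound to a cyclin, and the CDC25 phosphatases switch that kinase on. Polo and aurora kinases then build the spindle, kinesin motors move chromosomes along its microtubules, and the spindle checkpoint holds back the anaphase-promoting complex until every kinetochore is attached. Transcripts of these genes peak together late in the cell cycle, and many of their promoters carry a CHR element (cell cycle genes homology region) and CCAAT boxes, through which the MuvB complexes and NF-Y act. Proliferating cells hold far more of these transcripts than resting ones, and in the kidney they rise in tubular cells that divide after injury.

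Promoter sequence was read for the members that the RefSeq promoter table of GRCm38.p6 lists, which were 33 of 40, and Ccna2, Cdc25c, Foxm1, Aurkb, Incenp, Tpx2 and Kif20a were not matched. Each promoter of 300 bases runs from 250 bases before to 50 bases after the annotated start, and words were searched on both strands. The CHR word TTTGAA stood in 26 of the 33 members (78.8%), against 20.2% of the 27025 genes of the table and 14.3% of the 9373 tested genes with a promoter. In 23 members (69.7%) its first base lay within 50 bases of the start, as it did in 5.72% of all genes and 3.77% of tested ones. The CCAAT box (CCAAT) was found in 26 members (78.8%), against 41.1% of all genes and 44.3% of tested ones. Both words together were found in 22 members (66.7%), against 7.97% of all genes and 6.25% of tested ones. The related word TTCGAA was found in 4 members (12.1%; 1.8% of all genes and 2.64% of tested ones). Of words for E2F sites, TTGGCGC was found in 5 members (15.2%; 2.85% of all genes and 5.21% of tested ones). The word TTCGCGC was found in 2 members (6.06%; 1.81% of all genes and 3.65% of tested ones). The last such word, TTCCCGC, was found in 0 of the 33, against 5.29% of all genes and 9.96% of tested ones. The CCAAT box can share bases with TTGGCGC, and with the CHR word as in Cdca8. These matches are a description of the letters and not of any bound factor.

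The sequences of 7 members are shown. Cdk1, Cdc20, Cdca8, Cenpa, Cenpf and Top2a hold both the CHR word and the CCAAT box, as most members with a promoter do, and were lower with silencing in TGF-β1 libraries, and Cdc25b, which has the TTCGAA word instead, had the largest difference between TGF-β1 and basal control libraries. Each runs 5′ to 3′ from 110 bases before to 30 bases after the annotated start on the gene's own strand, 140 bases in all, with the CHR word, its TTCGAA relative and the CCAAT box in capitals (TTCAAA and ATTGG are the CHR word and the CCAAT box read on the other strand). In GRCm38.p6 they lie at chr10:69352883-69353022 (minus strand), chr4:118437314-118437453 (minus strand), chr4:124936888-124937027 (minus strand), chr5:30666776-30666915 (plus strand), chr1:189688057-189688196 (minus strand), chr11:99024160-99024299 (minus strand) and chr2:131186838-131186977 (plus strand), in the order printed.
Cdk1: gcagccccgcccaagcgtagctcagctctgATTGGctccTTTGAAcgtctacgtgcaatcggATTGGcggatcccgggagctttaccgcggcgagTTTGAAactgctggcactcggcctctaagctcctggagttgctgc
Cdc20: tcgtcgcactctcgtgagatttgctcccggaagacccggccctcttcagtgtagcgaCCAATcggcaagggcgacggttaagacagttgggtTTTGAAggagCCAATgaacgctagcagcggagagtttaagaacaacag
Cdca8: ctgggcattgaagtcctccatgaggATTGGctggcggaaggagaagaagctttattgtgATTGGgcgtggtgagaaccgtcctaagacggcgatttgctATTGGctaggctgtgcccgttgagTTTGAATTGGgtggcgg
Cenpa: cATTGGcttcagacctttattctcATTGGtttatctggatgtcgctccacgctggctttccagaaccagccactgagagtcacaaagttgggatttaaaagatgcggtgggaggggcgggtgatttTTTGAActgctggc
Cenpf: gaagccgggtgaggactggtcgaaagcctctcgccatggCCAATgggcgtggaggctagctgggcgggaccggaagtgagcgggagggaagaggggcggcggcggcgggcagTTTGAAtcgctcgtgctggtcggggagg
Top2a: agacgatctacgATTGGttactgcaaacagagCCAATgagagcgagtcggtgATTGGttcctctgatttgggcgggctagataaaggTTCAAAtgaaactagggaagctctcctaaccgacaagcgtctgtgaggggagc
Cdc25b: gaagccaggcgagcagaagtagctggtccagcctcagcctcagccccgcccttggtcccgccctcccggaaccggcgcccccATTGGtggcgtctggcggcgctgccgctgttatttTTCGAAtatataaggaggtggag

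**Figure D1:**
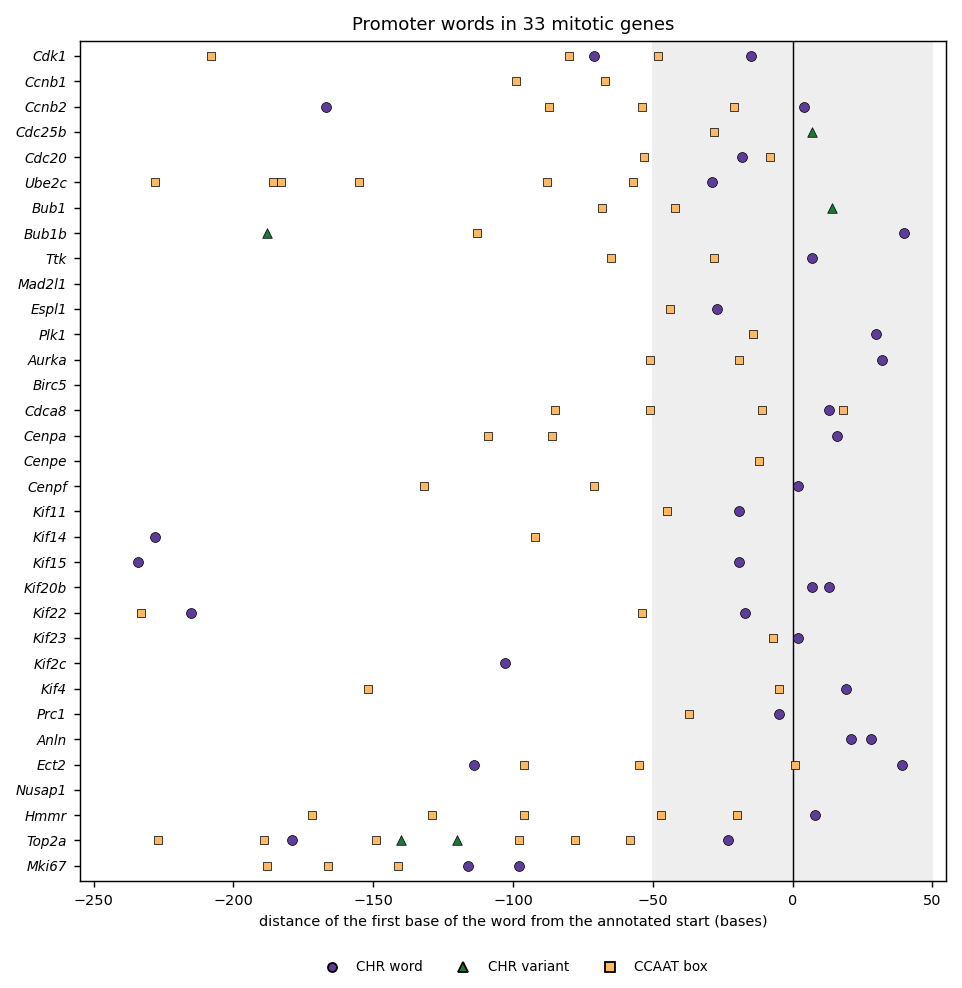
Distance in bases from the annotated start (x axis) to the first base of each CHR word (circles), TTCGAA variant (triangles) and CCAAT box (squares) in the promoters of the 33 members listed, 1 row per gene (Prc1 and Ect2 have a second promoter that is not drawn). The grey band marks 50 bases on either side of the start, where 23 of the 33 members hold a CHR word.

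Silencing itself was deeper in the TGF-β1 libraries. Fh1, which codes for fumarate hydratase, stood at 15.0, 13.7 and 13.8 CPM (counts scaled to library size with TMM factors) in KD+TGF-β1 libraries, against 49.6, 49.7 and 49.4 CPM in NC+TGF-β1 libraries. Without the cytokine it stood at 28.6, 31.3 and 29.7 CPM in KD libraries, against 51.4, 53.9 and 53.5 CPM in NC libraries. KD+TGF-β1 cells thus held 28.6% and KD cells 56.4% of their control level (interaction log2 -0.98, adjusted p = 8.18e-06). Library totals were 17651213 to 18462872 estimated counts. All 10 markers of renal tubular epithelium were expressed, with a summed level of 6120.1 to 6279.9 CPM in KD+TGF-β1, 5735 to 5871 CPM in NC+TGF-β1, 4404 to 4594 CPM in KD and 4203 to 4385 CPM in NC libraries. Of 6 proximal tubule markers 2 passed the count filter, of 5 loop, distal tubule and collecting duct markers 0, and Lrp2 (megalin) had 0 to 13 counts in KD+TGF-β1, 0 to 2 in NC+TGF-β1, and 0 to 1 in KD and NC libraries. Markers of fibroblasts summed to 131 to 158 counts in KD+TGF-β1 and 111 to 148 in NC+TGF-β1 libraries, and to 17 to 27 in KD and 13 to 28 in NC libraries. Most of these counts were of Col1a1 alone (98 to 112, 94 to 126, 10 to 18 and 8 to 17 in the same order). Only 2 of the 8 fibroblast markers passed the count filter. One library stood apart: 9 markers of pluripotent cells summed to 328 estimated counts in KD+TGF-β1 replicate 1 and to 0 in the other 5 TGF-β1 libraries. Earlier work had noticed these 9 of 11 listed markers in these same data. The other 2 had counts in every group. Sox2 had 34 to 80 counts in KD+TGF-β1, 38 to 50 in NC+TGF-β1, 84 to 94 in KD and 86 to 105 in NC libraries. Esrrb had 9 to 68, 8 to 13, 4 to 6 and 2 to 6 in the same order. The part of these marker levels in the results was not tested.

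In cells given TGF-β1, 18 of 40 mitotic genes had lower transcript levels after FH silencing, by little per gene, and the other 22 did not pass the test. Of the 40 members, 18 fell and 0 rose in KD+TGF-β1 against NC+TGF-β1 libraries (edgeR quasi-likelihood test, Benjamini-Hochberg adjusted p under 0.05 over all genes tested), where 6.02% of all genes tested fell and 5.42% rose. The log2 changes of the 40 ran from -0.34 to -0.01 with a median of -0.13, beside a median of 0.00 over all genes tested. All 40 were negative, as were 5794 of the 11707 genes tested. In 27 members every KD+TGF-β1 library lay below every NC+TGF-β1 library, against 15.7% of all genes tested. The 18 were Cdk1, Ccna2 and Foxm1 of the 7 genes of the CDK1 switch, Cdc20, Ttk and Mad2l1 of the 7 of the checkpoint and anaphase, 6 of the 7 around polo and aurora kinases, Cenpa and Cenpf of the 3 centromere genes, Kif11 of the 9 kinesins, Anln of the 5 midzone and spindle proteins, and both chromosome genes, Top2a and Mki67. Summed over the 40 genes, the level was 3776, 3788 and 3746 CPM in KD+TGF-β1 libraries, against 4118, 4262 and 4079 CPM in NC+TGF-β1 libraries. The groups did not overlap, and NC+TGF-β1 replicate 2 was the highest of the 6. In bulk RNA, fewer cells in mitosis and less of these transcripts per cell cannot be told apart.

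**Figure D2:**
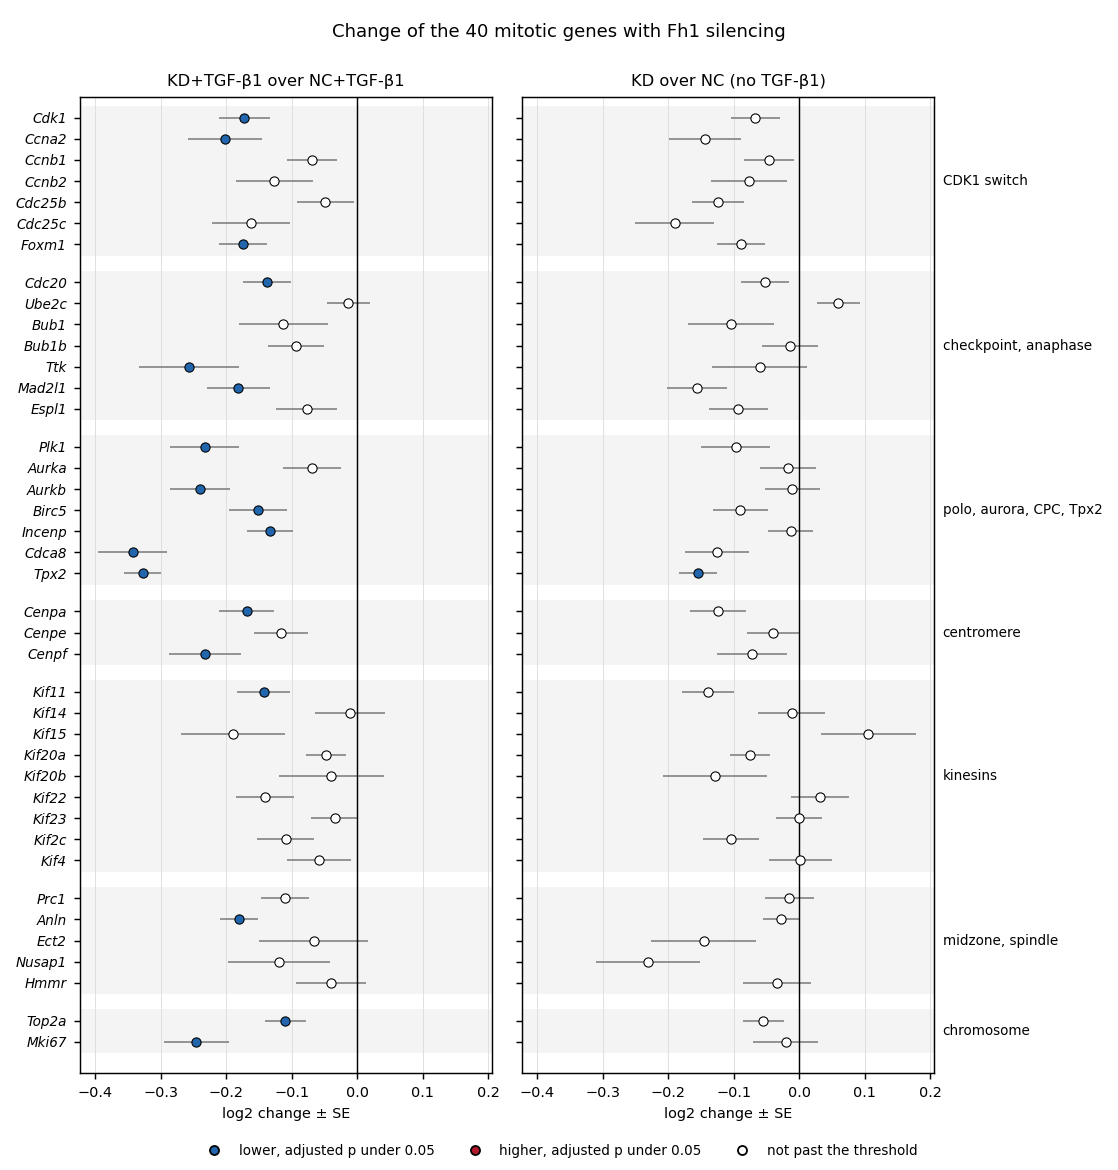
log2 change (x axis, ± SE of the edgeR fit) of the 40 members with Fh1 silencing, in KD+TGF-β1 over NC+TGF-β1 libraries (left) and KD over NC libraries (right), grouped by role, with 3 libraries per group. Filled points passed an adjusted p of 0.05: 18 on the left and Tpx2 alone on the right, and all 40 points on the left lie below 0.

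The number of calls fell when any 1 library was left out, among the members as over all genes tested, and the sign of the median did not change. With the same fit and 1 library left out, the count fell to 13, 9 and 7 when KD+TGF-β1 replicate 1, 2 or 3 was dropped, and to 10, 11 and 11 when NC+TGF-β1 replicate 1, 2 or 3 was dropped, and the median of the 40 log2 changes stayed between -0.15 and -0.11. Over all genes tested the 1340 calls became 857, 872 and 787, and 943, 974 and 888, in the same order. The calls of Foxm1, Plk1, Aurkb, Cdca8, Tpx2, Anln and Mki67 held in all 6 of these fits and under all 7 other settings tried. Under those 7 settings (DESeq2, other scalings, filters and fits) Cdk1, Mad2l1 and Cenpa were also called in all 7, Cdc20 and Incenp in 6 (not by DESeq2), Cenpf and Top2a in 5 (not on either TPM scale), and Ccna2, Ttk and Kif11 in 4. Birc5 was called in 1 of the 7, with adjusted p up to 0.123 by DESeq2. KD+TGF-β1 replicate 1 is the library with counts of the 9 pluripotency markers, and without it 13 of the 40 passed.

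The largest group of falls was among the polo and aurora kinases and their partners. Tpx2 codes for the protein that activates aurora A and nucleates spindle microtubules. Tpx2 stood at 188, 190.2 and 187 CPM in KD+TGF-β1 libraries, against 239.8, 238 and 232 CPM in NC+TGF-β1 libraries. The groups stood well apart, and the level with silencing was 79.7% of that in control cells (log2 change -0.33, SE 0.029, adjusted p = 1.09e-05). Cdca8 codes for borealin, a subunit of the chromosomal passenger complex. Cdca8 stood at 38.4, 40.01 and 40.9 CPM in KD+TGF-β1 libraries, against 51.1, 53.0 and 47.3 CPM in NC+TGF-β1 libraries. Its change was the largest of the 40 (log2 change -0.34, SE 0.052, adjusted p = 0.000963), again with no overlap. Aurkb stood at 44.7, 44.1 and 45.2 CPM in KD+TGF-β1 libraries, against 53.0, 51.3 and 53.9 CPM in NC+TGF-β1 libraries. Aurkb is the kinase of the passenger complex, and its lower level was steady over the 3 silenced libraries (log2 change -0.24, SE 0.046, adjusted p = 0.00422). Plk1 stood at 78.4, 80.5 and 78.4 CPM in KD+TGF-β1 libraries, against 85.5, 101 and 92.6 CPM in NC+TGF-β1 libraries. Plk1, polo-like kinase, varied among the control libraries, with replicate 2 high, but did not overlap with the silenced ones (log2 change -0.23, SE 0.053, adjusted p = 0.0121).

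The other passenger subunits were lower by less. Birc5 stood at 58.1, 56.2 and 53.9 CPM in KD+TGF-β1 libraries, against 64.8, 59.9 and 62.1 CPM in NC+TGF-β1 libraries. Birc5 is survivin, the subunit that binds the centromeric histone mark, and its change was -0.15 (SE 0.045, adjusted p = 0.0432). Incenp stood at 113, 118 and 116 CPM in KD+TGF-β1 libraries, against 126, 129 and 125 CPM in NC+TGF-β1 libraries. Incenp, the scaffold of the complex, changed by -0.13 (SE 0.035, adjusted p = 0.0255). Neither gene's groups overlapped, yet the calls of Birc5 held in 2 and of Incenp in 1 of the 6 fits without 1 library, with adjusted p up to 0.164 (without KD+TGF-β1 replicate 3) and 0.104 (without KD+TGF-β1 replicate 1). Aurka, the spindle pole aurora kinase that Tpx2 activates, is the only one of these 7 genes that did not pass: it stood at 90.8 to 96.9 CPM with silencing and 95.5 to 104 CPM in controls (log2 change -0.07, SE 0.044, adjusted p = 0.371).

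Of the CDK1 switch, the kinase itself, cyclin A2 and the transcription factor that drives the G2/M genes passed. Cdk1 stood at 138, 139 and 131 CPM in KD+TGF-β1 libraries, against 145, 159.6 and 155 CPM in NC+TGF-β1 libraries. The control libraries were more spread than the silenced ones, without overlap (log2 change -0.17, SE 0.039, adjusted p = 0.0112; adjusted p = 0.0575 without KD+TGF-β1 replicate 3). Foxm1 stood at 128, 133 and 128 CPM in KD+TGF-β1 libraries, against 144, 152 and 143 CPM in NC+TGF-β1 libraries. Foxm1, that transcription factor, was lower in every silenced library (log2 change -0.17, SE 0.037, adjusted p = 0.0079). Ccna2 stood at 138, 129.8 and 131 CPM in KD+TGF-β1 libraries, against 148, 163 and 148 CPM in NC+TGF-β1 libraries. Ccna2, cyclin A2, had a similar change with a wider error (log2 change -0.20, SE 0.056, adjusted p = 0.0331), and only 1 of the 6 fits with a library dropped kept its call (adjusted p = 0.138 without NC+TGF-β1 replicate 2). The B cyclins that pair with CDK1 at mitosis and the CDC25 phosphatases that activate it did not pass. Ccnb1 was at -0.07 (adjusted p = 0.3), Ccnb2 at -0.13 (0.201), Cdc25b at -0.05 (0.546) and Cdc25c at -0.16 (0.104).

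Of the spindle checkpoint and its target, 3 of 7 genes fell. Mad2l1 stood at 75.9, 69.4 and 74.0 CPM in KD+TGF-β1 libraries, against 84.8, 80.7 and 83.3 CPM in NC+TGF-β1 libraries. Mad2l1 codes for MAD2, which sequesters the activator CDC20, and its groups did not overlap (log2 change -0.18, SE 0.048, adjusted p = 0.0255). Cdc20 stood at 90.5, 90.5 and 89.6 CPM in KD+TGF-β1 libraries, against 97.9, 104 and 96.2 CPM in NC+TGF-β1 libraries. Cdc20, that activator of the anaphase-promoting complex, changed by -0.14 (SE 0.036, adjusted p = 0.0255). Ttk stood at 19.9, 17.7 and 16.7 CPM in KD+TGF-β1 libraries, against 23.2, 21.7 and 19.99 CPM in NC+TGF-β1 libraries. Ttk, the kinase MPS1 that starts the checkpoint, had the lowest level of the 3 and the widest error (log2 change -0.26, SE 0.077, adjusted p = 0.0465). Each of these calls held in 2 of the 6 fits without 1 library, with adjusted p up to 0.111 (without KD+TGF-β1 replicate 2), 0.0963 (without NC+TGF-β1 replicate 2) and 0.175 (without KD+TGF-β1 replicate 3). The checkpoint kinases Bub1 (-0.11, adjusted p = 0.346) and Bub1b (-0.09, 0.199) and separase, Espl1, which cuts cohesin (-0.08, 0.351), did not pass. Ube2c, the ubiquitin-conjugating enzyme of the anaphase-promoting complex, showed hardly any difference, with 157 to 166 CPM in KD+TGF-β1 and 161 to 166 CPM in NC+TGF-β1 libraries (log2 change -0.01, SE 0.033, adjusted p = 0.845).

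Among the genes of chromosome and centromere structure, Mki67 stood at 239, 245 and 234 CPM in KD+TGF-β1 libraries, against 278, 303 and 270.4 CPM in NC+TGF-β1 libraries. Mki67, which codes for the proliferation antigen Ki-67 that coats mitotic chromosomes, was lower in each silenced library than in any control (log2 change -0.25, SE 0.05, adjusted p = 0.00599). Top2a stood at 322, 315 and 308 CPM in KD+TGF-β1 libraries, against 335, 342 and 342 CPM in NC+TGF-β1 libraries. Top2a, the topoisomerase that untangles sister chromatids, had a smaller change (log2 change -0.11, SE 0.031, adjusted p = 0.0367). Cenpf stood at 63.8, 58.8 and 59.7 CPM in KD+TGF-β1 libraries, against 69.6, 75.2 and 69.4 CPM in NC+TGF-β1 libraries. Cenpf codes for a large protein of the outer kinetochore (log2 change -0.23, SE 0.055, adjusted p = 0.0144). Cenpa stood at 87.2, 86.1 and 87.5 CPM in KD+TGF-β1 libraries, against 98.5, 96.3 and 98.3 CPM in NC+TGF-β1 libraries. Cenpa, the histone H3 variant that marks the centromere, varied little within either group (log2 change -0.17, SE 0.042, adjusted p = 0.0189). For these 4 genes the ranges of the silenced and the control libraries stayed apart. In fits without 1 library the calls held for Cenpf in 3 of 6, for Cenpa in 1 and for Top2a in 0, with adjusted p up to 0.0641 (without NC+TGF-β1 replicate 2), 0.0666 (without KD+TGF-β1 replicate 2) and 0.142 (without KD+TGF-β1 replicate 3). Cenpe, the kinetochore kinesin, was at -0.12 (adjusted p = 0.089).

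The kinesins had the smallest median change of the roles, -0.06. Kif11 stood at 119, 120.02 and 118 CPM in KD+TGF-β1 libraries, against 129, 136 and 128 CPM in NC+TGF-β1 libraries. Kif11, the kinesin Eg5 that pushes spindle poles apart, is the 1 kinesin of 9 that passed (log2 change -0.14, SE 0.04, adjusted p = 0.0346), and its call was lost in each of the 6 fits without 1 library (adjusted p 0.0568 to 0.127). The other 8 had log2 changes from -0.19 for Kif15, a second spindle-pole motor (adjusted p = 0.151), to -0.01 for Kif14, a motor of cytokinesis (adjusted p = 0.946). Between them stood the chromosome arm motors Kif22 (-0.14, adjusted p = 0.0565) and Kif4 (-0.06), the microtubule depolymerase Kif2c (-0.11) and the midzone motors Kif20a (-0.05), Kif20b (-0.04) and Kif23 (-0.03). Anln stood at 130.02, 137 and 134 CPM in KD+TGF-β1 libraries, against 151, 154 and 151 CPM in NC+TGF-β1 libraries. Anln is anillin, which organises the contractile ring, and it is the member with the second smallest standard error of the 18 (log2 change -0.18, SE 0.029, adjusted p = 0.00151). Prc1, the bundler of midzone microtubules (-0.11, adjusted p = 0.0749), Ect2, the RhoA activator at the division plane (-0.07), and the spindle proteins Nusap1 (-0.12) and Hmmr (-0.04) did not pass.

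**Figure D3:**
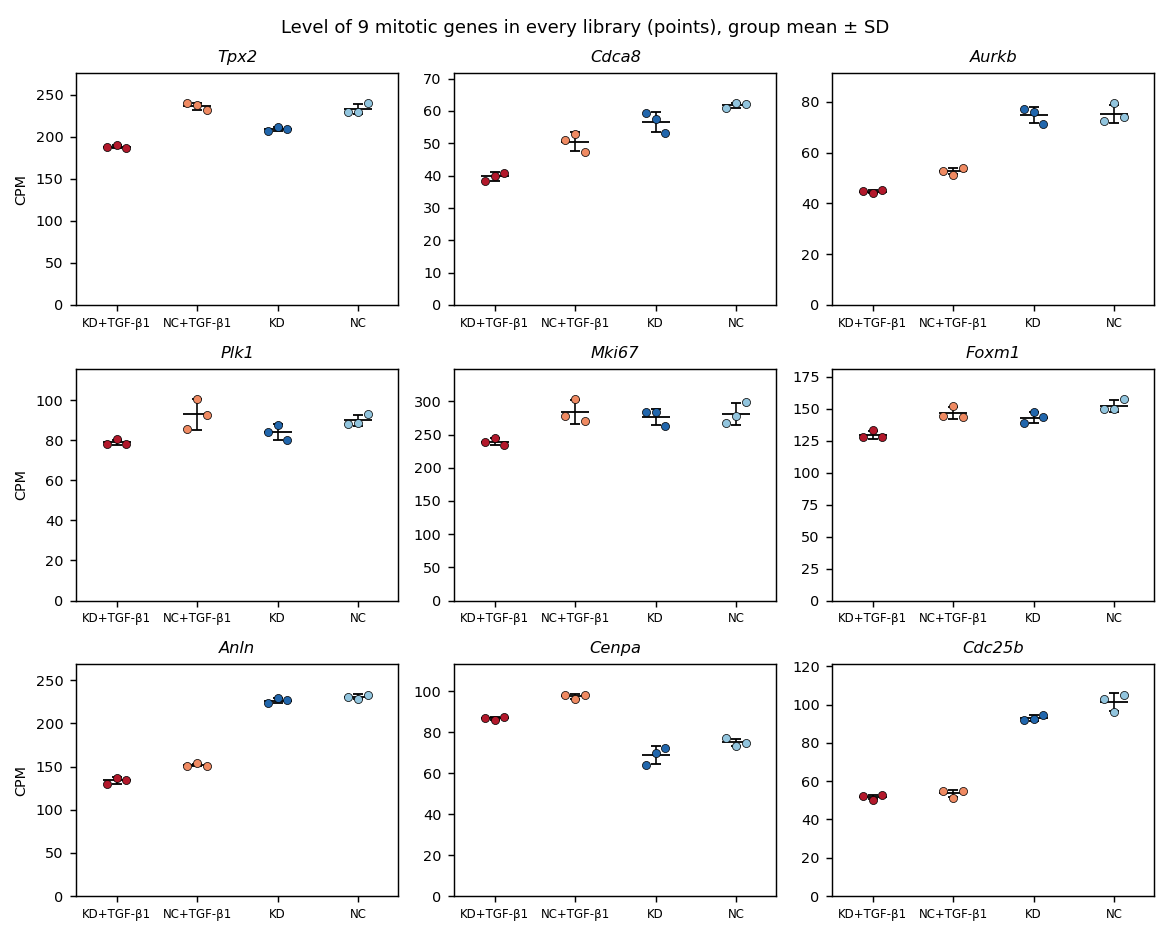
CPM (y axis, from 0) of 9 members in every library, with the group mean ± SD over 3 libraries as a black bar, for KD+TGF-β1, NC+TGF-β1, KD and NC. For Tpx2, Cdca8, Aurkb, Plk1, Mki67, Foxm1, Anln and Cenpa all KD+TGF-β1 points lie below all NC+TGF-β1 points, and Cdc25b differs between TGF-β1 and basal libraries but overlaps between KD+TGF-β1 and NC+TGF-β1.

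Without the cytokine, silencing went with the same sign in most members but passed the test in 1. Of the 40, 1 fell and 0 rose in KD against NC libraries (2.22% of all genes tested fell and 1.44% rose). The median log2 change was -0.07, beside -0.01 over all genes tested, and the range was -0.23 to 0.11. Negative changes were found in 36 of 40 members, and in 6554 of the 11707 genes tested. Without NC replicate 1 or without NC replicate 3 the median was -0.04. In 16 members the 3 KD libraries all lay below the 3 NC libraries, against 12.3% of all genes tested. The 1 that passed is Tpx2, which stood at 207, 212 and 209 CPM in KD libraries, against 229, 230.1 and 239.8 CPM in NC libraries. Its groups did not overlap, and KD libraries held 89.8% of the control level (log2 change -0.15, SE 0.028, adjusted p = 0.00733). The call was lost without NC replicate 3, the highest of the NC libraries (adjusted p = 0.0617), and when only these 6 libraries were fitted (adjusted p = 0.0925).

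The members next to Tpx2 in that basal comparison were Kif11 (-0.14, adjusted p = 0.0718), Mad2l1 (-0.16, 0.0855), Cdc25c (-0.19, 0.109) and Cdc25b (-0.12, 0.11). Nusap1 had the most negative value (-0.23, adjusted p = 0.139), from 30.02, 23.2 and 28.5 CPM in KD libraries, against 32.7, 32.4 and 30.8 CPM in NC libraries. The groups did not overlap, and KD replicate 2 lay far below the other two. Several genes that fell with silencing in TGF-β1 libraries were at nearly the same level here. Aurkb stood at 77.0, 76.0 and 71.3 CPM in KD libraries, against 72.4, 79.4 and 74.2 CPM in NC libraries, and Mki67 at 284, 283 and 263 CPM in KD libraries, against 267, 277 and 299 CPM in NC libraries. The groups overlapped for both (log2 changes -0.01 and -0.02). The 4 members above 0 were Kif15 (0.11), Ube2c (0.06), Kif22 (0.03) and Kif4 (0.00), and none of them passed. NC replicate 1 was the highest NC library for Bub1, Ect2 and Kif20b, with 149, 216 and 102 CPM against 122, 176 and 82.8 CPM in NC replicate 2. Summed over the 40 genes, KD libraries held 4507, 4473 and 4487 CPM, against 4781, 4641 and 4683 CPM in NC libraries.

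Whether silencing acted more strongly under TGF-β1 was tested as an interaction, the difference of the 2 silencing changes. For 32 of 40 members, and for 5406 of the 11707 genes tested, the silencing change was more negative with the cytokine. The median difference of the 40 was -0.06, beside 0.01 over all genes tested, with a range of -0.29 to 0.11. No member passed: 0 fell and 0 rose in edgeR (0.419% and 0.47% of all genes tested), and DESeq2 also called 0. In edgeR 8 of the 40 members had an unadjusted p under 0.05, as did 1326 of the 11707 genes tested. The lowest adjusted p were those of Tpx2 (-0.17, 0.0718), Anln (-0.15, 0.129), Aurkb (-0.23, 0.145), Mki67 (-0.22, 0.213) and Cdca8 (-0.22, 0.24). Without NC replicate 3, Tpx2 and Mki67 passed (adjusted p = 0.0284 and 0.0487). The residual Fh1 level differed between the settings as given above, and its part in these values was not tested.

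Levels per transcript length (TPM) spanned a wide range among the members. Ube2c was the highest in each group, at 391 ± 8.71 TPM (mean ± SD, n = 3) in KD+TGF-β1, 393 ± 7.97 in NC+TGF-β1, 457 ± 8.74 in KD and 433 ± 14.6 in NC libraries. In NC libraries Birc5 (178 ± 4.65 TPM), Top2a (123 ± 4.14), Tpx2 (116 ± 1.64) and Mad2l1 (114 ± 7.46) came next. Tpx2 and Mad2l1 did not differ beyond their spread. The motors Kif14 (4.50 ± 0.225 TPM) and Kif15 (8.16 ± 0.653) were the lowest.

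With TGF-β1, most members were lower and a few were higher, in silenced and in control cells. In KD+TGF-β1 against KD libraries 25 of 40 fell and 2 rose (33.7% and 31.4% of all genes tested), with a median log2 change of -0.20, beside -0.01 over all genes. In NC+TGF-β1 against NC libraries 21 fell and 2 rose (34.7% and 29.4% of all genes tested), with a median of -0.15, beside -0.03. With the size factors of DESeq2 that last split became 21 lower and 5 higher, and without NC replicate 3 it became 22 lower and 6 higher. The call was lower in both comparisons for 20 members and higher in both for Cenpa and Kif20a. The share of all genes tested with the same call in both was not counted, so these joint counts have no background beside them. Foxm1, Tpx2, Cenpf, Kif23 and Mki67 passed as lower in silenced cells only and Kif20b in control cells only, and the interaction of none of them passed. The groups of Kif20b overlapped, and its call held in 3 of 6 fits with a library dropped (adjusted p up to 0.159 without NC replicate 1) and in 4 of 7 other settings. That of Kif23 held in 2 of 6 (up to 0.0859 without KD+TGF-β1 replicate 1) and in 5 of 7.

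Cdc25b, a phosphatase that activates CDK1, had the largest difference. It stood at 52.3, 50.4 and 52.7 CPM in KD+TGF-β1 libraries, against 92.1, 92.3 and 94.6 CPM in KD libraries (log2 change -0.84, SE 0.042, adjusted p = 4.1e-10). In control cells it stood at 54.7, 51.3 and 54.7 CPM in NC+TGF-β1 libraries, against 103, 96.3 and 105 CPM in NC libraries (log2 change -0.92, SE 0.041, adjusted p = 1.52e-10). The TGF-β1 libraries held 55.7% and 52.8% of the basal level, and the groups were far apart. Its relative Cdc25c was at 0.12 in silenced and 0.09 in control cells and passed in neither.

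Anln and Ect2 act at the contractile ring. Anln stood at 130.02, 137 and 134 CPM in KD+TGF-β1 libraries, against 223, 229 and 227 CPM in KD libraries, and at 151, 154 and 151 CPM in NC+TGF-β1 libraries, against 231, 228 and 233 CPM in NC libraries. The changes were -0.76 (adjusted p = 2.64e-11) and -0.60 (adjusted p = 2.8e-10), with libraries of each group close together. Ect2 stood at 108, 110.1 and 116 CPM in KD+TGF-β1 libraries, against 162, 160.4 and 177 CPM in KD libraries (-0.58, adjusted p = 2.46e-05). Its control values were 116, 121 and 114 CPM in NC+TGF-β1 libraries, against 216, 176 and 161 CPM in NC libraries (-0.66, adjusted p = 6.88e-06), and NC replicate 1 was the highest of the 12.

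All 4 subunits of the passenger complex fell, while Plk1 and Aurka did not pass. Aurkb stood at 44.7, 44.1 and 45.2 CPM in KD+TGF-β1 libraries, against 77.0, 76.0 and 71.3 CPM in KD libraries, a change of -0.74 (adjusted p = 3.33e-09). In NC+TGF-β1 libraries it stood at 53.0, 51.3 and 53.9 CPM, against 72.4, 79.4 and 74.2 CPM in NC libraries (-0.51, adjusted p = 1.52e-07). Birc5 stood at 58.1, 56.2 and 53.9 CPM in KD+TGF-β1 libraries, against 86.3, 86.9 and 81.5 CPM in KD libraries, and at 64.8, 59.9 and 62.1 CPM in NC+TGF-β1 libraries, against 88.2, 89.3 and 93.5 CPM in NC libraries. Its changes were -0.60 (adjusted p = 2.72e-08) and -0.54 (adjusted p = 7.92e-08). No library of the TGF-β1 groups reached the basal range for either gene. Incenp was at -0.49 and -0.37 and Cdca8 at -0.51 and -0.29 in silenced and control cells, all past the threshold. Plk1 was at -0.09 and 0.05 and Aurka at -0.08 and -0.03.

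Other members at the low end were Kif15, Espl1, Bub1 and Ccna2. Kif15 stood at 17.8, 16.1 and 17.7 CPM in KD+TGF-β1 libraries, against 26.6, 26.3 and 26.9 CPM in KD libraries (log2 change -0.63, SE 0.076, adjusted p = 5.6e-06), and in control cells its change was -0.33 (adjusted p = 0.0015). Espl1 stood at 53.2, 53.2 and 54.9 CPM in NC+TGF-β1 libraries, against 68.5, 72.2 and 75.5 CPM in NC libraries (log2 change -0.42, SE 0.045, adjusted p = 1.71e-06), and in silenced cells its change was -0.41. Neither gene's groups overlapped. Bub1 was at -0.43 in silenced and -0.42 in control cells, and Ccna2 at -0.48 and -0.42. Further changes past the threshold in both were those of Cdk1 (-0.32 and -0.22), Ccnb1 (-0.19 and -0.17), Ttk (-0.43 and -0.24), Mad2l1 (-0.38 and -0.36), Top2a (-0.31 and -0.26), Hmmr (-0.28 and -0.28), Kif11 (-0.23 and -0.23), Kif14 (-0.20 and -0.20) and Ube2c (-0.21 and -0.13).

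Cenpa and Kif20a went the other way. Cenpa stood at 87.2, 86.1 and 87.5 CPM in KD+TGF-β1 libraries, against 63.9, 70.1 and 72.6 CPM in KD libraries (log2 change 0.34, SE 0.043, adjusted p = 8.7e-06). In control cells it stood at 98.5, 96.3 and 98.3 CPM in NC+TGF-β1 libraries, against 77.1, 73.5 and 74.6 CPM in NC libraries (log2 change 0.38, SE 0.042, adjusted p = 2.33e-06). It was thus higher with the cytokine, yet lower with silencing among the cytokine-treated libraries, the only member with that pair of calls. Kif20a, the midzone kinesin MKLP2, stood at 172, 170.1 and 169.7 CPM in KD+TGF-β1 libraries, against 142, 139.8 and 140.2 CPM in KD libraries (log2 change 0.28, SE 0.03, adjusted p = 1.73e-06). In NC+TGF-β1 libraries it stood at 179, 180.2 and 170.03 CPM, against 145, 149 and 150.4 CPM in NC libraries (log2 change 0.25, SE 0.03, adjusted p = 4.9e-06). For both genes the TGF-β1 libraries lay above all basal libraries of the same cells, and both calls held in every fit without 1 library and with the size factors of DESeq2. Of the 18 members lower with silencing under TGF-β1, 11 were also lower with TGF-β1 in control cells, 1 (Cenpa) was higher, and 6 (Foxm1, Cdc20, Plk1, Tpx2, Cenpf and Mki67) had no call. These comparisons share the NC+TGF-β1 libraries, and the share of such pairs of calls over all genes tested was not counted. With TGF-β1 in control cells 34.7% of all genes tested fell and 29.4% rose. Ccnb2, Cdc25c, Bub1b, Aurka, Cenpe, Kif22, Kif2c, Kif4, Prc1 and Nusap1 passed in no comparison.

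**Figure D4:**
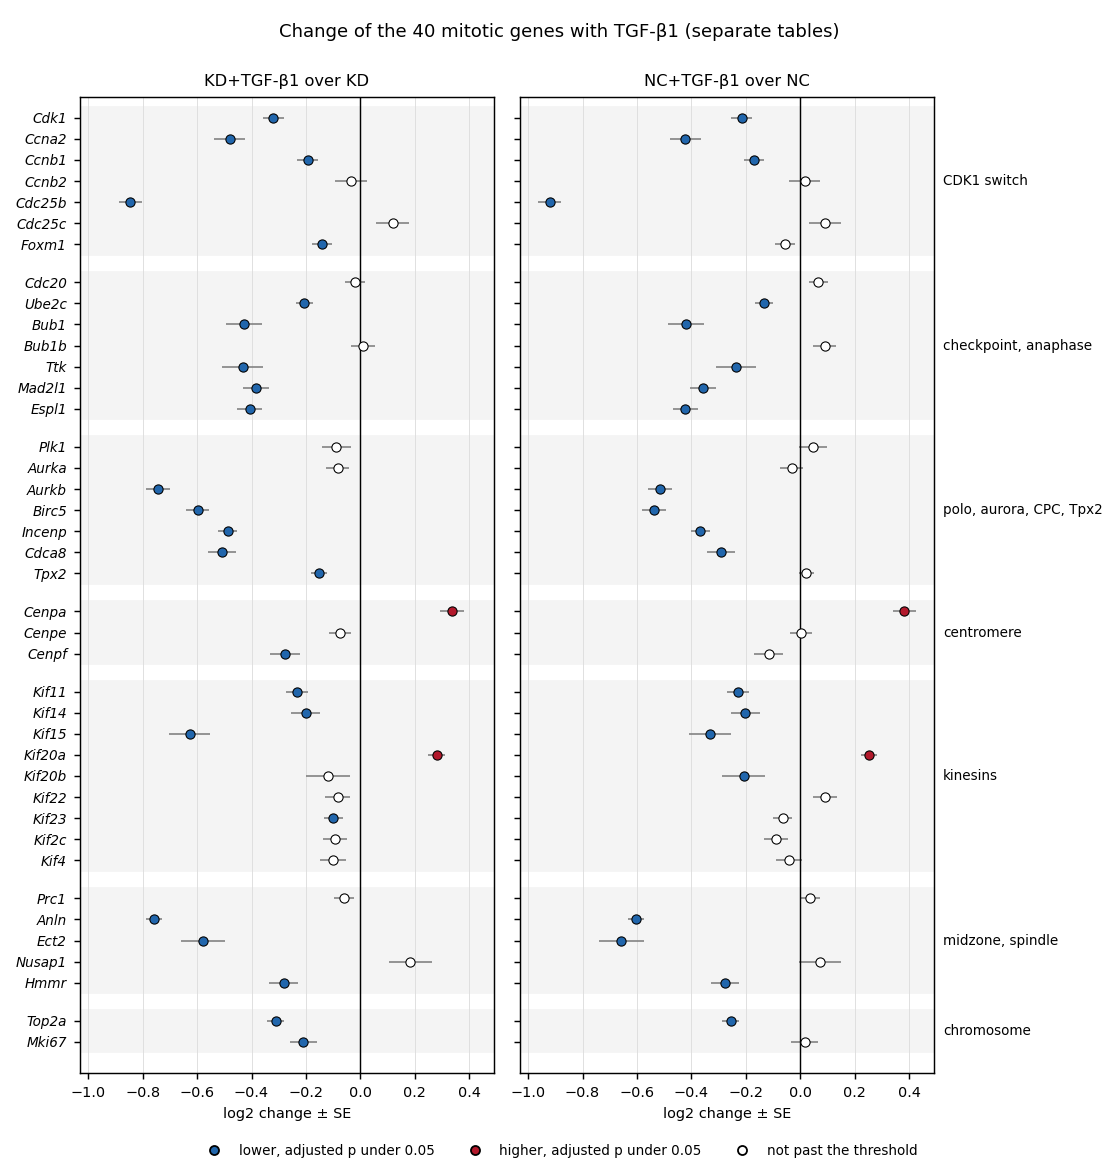
log2 change (x axis, ± SE of the edgeR fit) of the 40 members with TGF-β1, in KD+TGF-β1 over KD libraries (left) and NC+TGF-β1 over NC libraries (right), with 3 libraries per group. Blue points fell (25 and 21), red points rose (Cenpa and Kif20a in both), and Cdc25b has the most negative value in both panels.

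The genes that copy DNA, a list of 44 with no member in it, held 18 genes that fell with silencing under TGF-β1. In KD+TGF-β1 against NC+TGF-β1 libraries 18 of 44 fell and 0 rose (6.02% and 5.42% of all genes tested), with a median log2 change of -0.15, beside 0.00 over all genes tested. Rrm1, the large subunit of ribonucleotide reductase, was at -0.46 (adjusted p = 1.45e-07), Uhrf1, which maintains DNA methylation at forks, at -0.28 (0.000936) and Mcm6, a subunit of the replicative helicase, at -0.18 (0.000811). In KD against NC libraries 1 fell and 0 rose (Rrm1, -0.31, adjusted p = 1.31e-05; 2.22% and 1.44% of all genes tested) with a median of -0.02, beside -0.01. With TGF-β1 40 fell and 0 rose in silenced cells (33.7% and 31.4% of all genes tested; median -0.64, beside -0.01). In control cells 40 fell and 1 rose (34.7% and 29.4%; median -0.48, beside -0.03). The summed level of these 44 genes was 2643 to 2729 CPM in KD+TGF-β1, 2998 to 3032 CPM in NC+TGF-β1, 3954 to 4015 CPM in KD and 4023 to 4132 CPM in NC libraries. The ratio of the summed mitotic to the summed replication level was 1.38 to 1.43 in KD+TGF-β1, 1.36 to 1.41 in NC+TGF-β1, 1.11 to 1.13 in KD and 1.13 to 1.18 in NC libraries. The ratio was higher in every TGF-β1 library than in any basal one, and it overlapped between KD+TGF-β1 and NC+TGF-β1.

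**Figure D5:**
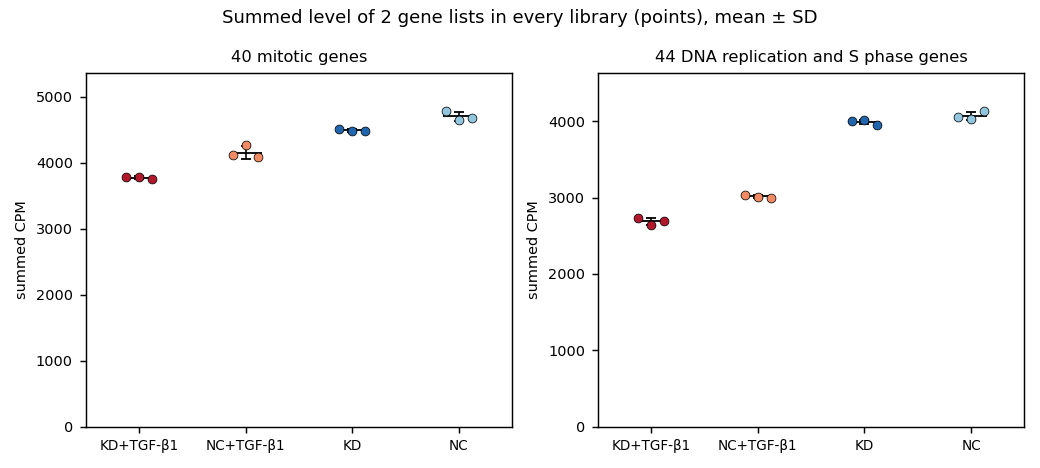
Summed CPM (y axis, from 0) of the 40 mitotic genes (left) and of 44 DNA replication and S phase genes (right) in each library, with the mean ± SD over 3 libraries. Both sums are lowest in KD+TGF-β1 and highest in NC libraries, and the gap between TGF-β1 and basal libraries is wider for the replication genes.

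Of further lists around mitosis, the counts are to be read against the shares of all genes tested, 6.02% lower and 5.42% higher with silencing under TGF-β1, and 2.22% and 1.44% without, and no list was tested against the rest. Of 28 centrosome and spindle assembly genes 6 fell and 0 rose in KD+TGF-β1 libraries (0 and 1 in KD libraries): Ckap2l, a spindle protein (-0.34, adjusted p = 0.000464), Racgap1, the partner of Kif23 and Ect2 at the midzone (-0.19, 0.00303), and Cep192, a centriole scaffold (-0.23, 0.0079), had the smallest p. Kntc1, a kinetochore protein that the list holds, was the 1 that rose in KD libraries (0.21, 0.015). Of 9 tubulins tested 2 fell in KD+TGF-β1 libraries, Tubb4b (-0.19, 0.00303) and Tuba1b (-0.13, 0.00625), which are uncertain because near-identical paralogs can share their reads. Of 33 outer kinetochore and centromere genes 0 fell and 1 rose (Zwint, 0.13, 0.0254), while in KD libraries 2 fell and 0 rose (Cenpi, -0.23, 0.00753, and Sgo2a, -0.36, 0.0485). Of 18 condensin and cohesin genes 1 fell (Smc1a, -0.15, 0.019) with TGF-β1 and 0 without. Of 18 genes of the anaphase-promoting complex and its regulators 0 passed in either silencing comparison.

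The counts among regulators of cell cycle entry are likewise to be read against 6.02% and 5.42% of all genes tested under TGF-β1, and 2.22% and 1.44% without it. Of 22 E2F, DREAM and MuvB genes 2 fell and 1 rose in KD+TGF-β1 libraries, and 1 fell and 0 rose in KD libraries. E2f8, an E2F that represses, had the smallest p of the list in both comparisons, at -0.64 (adjusted p = 4.56e-06) with and -0.43 (0.000129) without TGF-β1. Its level was 32.2 ± 2.36 CPM (SD, n = 3) in KD+TGF-β1, 50.3 ± 1.81 in NC+TGF-β1, 57.6 ± 1.44 in KD and 77.8 ± 1.31 in NC libraries. Tfdp1, the dimer partner of E2Fs (-0.18, 0.00394), also fell, and E2f3, an activating E2F, rose (0.15, 0.0284). Of 22 tested G1 cyclins, kinases and inhibitors 3 fell and 2 rose with TGF-β1, and 2 fell and 1 rose without. Cdkn1a, the inhibitor p21, rose in both comparisons: it stood at 511 ± 3.84 CPM (SD, n = 3) in KD+TGF-β1 and 419 ± 2.71 in NC+TGF-β1 libraries (0.29, 0.000124). Without the cytokine Cdkn1a stood at 471 ± 10.8 CPM in KD and 415 ± 21.0 in NC libraries (0.18, 0.00741). Ccnd1, cyclin D1, rose (0.15, 0.00151) and its kinase Cdk6 fell (-0.30, 3.47e-05) in KD+TGF-β1 libraries. In KD libraries Cdk6 (-0.19, 0.00282) and Skp2, which targets inhibitors for degradation (-0.25, 0.0229), fell.

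Changes of members with and without a sequence word were set side by side, without a test. Of all genes tested, 6.02% fell and 5.42% rose with silencing under TGF-β1. With TGF-β1 in control cells 34.7% fell and 29.4% rose, and the counts below are to be read against these shares. The 26 members with the CHR word had a median log2 change of -0.12 with silencing under TGF-β1 (11 of 26 fell), and the 7 whose promoter lacks it also -0.12 (2 of 7 fell). With TGF-β1 in control cells the medians were -0.12 (13 fell and 1 rose) and -0.36 (5 fell and 0 rose). The 7 members without a listed promoter, Tpx2 and Aurkb among them, had a median of -0.17 with silencing under TGF-β1 (5 of 7 fell). With TGF-β1 in control cells the median of those 7 was -0.06 (3 fell and 1 rose). The lack of the word in Ccnb1, Cdc25b, Bub1, Mad2l1, Birc5, Cenpe and Nusap1 says only that these letters are not in this window. Earlier work on these libraries picked 4 words of 7 bases, TCTACAC among them and the overlapping CTACACA as well as TTCTACA, with GACACCT as the last, in 3′ UTRs of genes that were lower with silencing in both settings. By the GENCODE annotation, 11 of the 40 members hold one (27.5%), against 35% of the 11298 tested genes with a 3′ UTR. They are Ccna2, Ccnb2, Cdc25b, Mad2l1, Birc5, Cdca8, Tpx2, Kif14, Kif15, Anln and Nusap1. Of these 11 members 6 fell with silencing under TGF-β1, with a median of -0.18. Of the 29 that hold none 12 fell, with a median of -0.11, and all 29 were negative. Without the cytokine the medians were -0.13 and -0.06. Since the words were picked on these libraries, these figures are a description only.

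The deposited values are per RefSeq transcript, and 12 members have 1 transcript while Prc1 has the most, 11. Tpx2, the gene lowest with silencing in both settings by p, has 8, and its leading model, a predicted one, held a mean of 27.9% of the gene's counts in KD+TGF-β1, 25.4% in NC+TGF-β1, 34.5% in KD and 39.6% in NC libraries. Cdc25b has 2, and the leading one held 54.2% in KD+TGF-β1, 49.9% in NC+TGF-β1, 61.6% in KD and 63.3% in NC libraries. Cdk1, Plk1, Cdca8, Foxm1 and Cdc20 have a single transcript, so their values do not depend on how counts were divided among models of the gene.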

How the data were processed

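RNA of the 12 libraries was extracted with TRIzol and prepared with a BGI mRNA kit, per the labels. Of tools, RSEM 1.3.1, DESeq2 1.34.0, Bowtie2 and HISAT2 appear in the submitters' processing notes, with no role given, as does the build hg38, although the cells are from mouse, so the only coordinates given here are those of RefSeq promoters. Per RefSeq transcript, the 2 tables that the authors deposited give estimated counts (expected counts) and TPM of each library, per the file headers. Both were summed per Entrez ID, matched to RefSeq symbols of GRCm38.p6 (15690 of 15802 IDs in both tables), and estimated counts were rounded. edgeR 4.0.16 in R 4.3.3 was fitted to all 12 libraries with 1 coefficient per group (TMM factors 0.978 to 1.025, filterByExpr, 8 residual degrees of freedom, biological coefficient of variation 4.6%), with quasi-likelihood tests of 5 contrasts and Benjamini-Hochberg adjustment over 11707 genes at 0.05. The fit was tested on data simulated from its own estimates of the spread, which cannot show that the model suits these libraries. Errors of log2 changes are standard errors. Replicates differed by more than sampling noise (chi-square per gene 1.67 to 13.4, the highest between NC replicates 1 and 3), where counting noise alone gives about 1, so counting error is a sizeable part of the spread in most pairs.

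Alternatives were DESeq2 size factors, no count filter, DESeq2 1.42.0, a replicate block, only the groups compared, limma 3.58.1 on log2(TPM + 1) and log2(TPM + 0.1), and each library left out. The members, gene lists, marker lists and words were chosen with earlier results of these data known. Values per library are given for members called in both silencing comparisons, the 6 called members with the largest change per contrast, and those called against the main direction. Beyond that rule, chosen after their values were seen, they are given for the other members called with silencing under TGF-β1 and for Aurkb, Mki67 and Nusap1 in basal libraries. Of the other lists, up to 3 called genes with the smallest p per silencing comparison are named. Promoters are from RefSeq (GRCm38.p6), 3′ UTRs from GENCODE.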

Additional observations from a re-analysis of the deposited data

Results flagged for a closer look

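A signal outside the genes compared was found in 1 library: 9 marker genes of pluripotent cells summed to 328 estimated counts in KD+TGF-β1 replicate 1 and to 0 in the other 5 TGF-β1 libraries, and the basal table does not list them. These 9 of 11 listed markers had been noticed in these same data by earlier work, and the other 2, Sox2 and Esrrb, had counts in every group. Without that library 13 of the 40 mitotic genes were lower with silencing under TGF-β1, against 18 with it, and the median log2 change of the 40 was -0.13 in both fits. Over all genes tested 857 were called without it, against 1340 with it. Leaving out any of the other 5 TGF-β1 libraries instead gave 7 to 11 members and 787 to 974 calls over all genes tested. The part of this signal in the values was not tested.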

How the results depend on the processing

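The median log2 change of the 40 members kept its sign in every comparison under every alternative run. For silencing without TGF-β1 it moved from -0.07 to -0.04 without NC replicate 1 or without NC replicate 3. For silencing with TGF-β1 the number of members called was 18, and 17 with DESeq2 size factors, 17 without the count filter, 21 with only the groups compared, 14 with DESeq2 and 12 with limma on either TPM scale. Leaving out 1 library gave 7 to 13 members, and 787 to 974 calls over all genes tested, against 1340. For silencing without TGF-β1 the number was 1, and 0 with only the groups compared, where 151 genes in all were called against 429. Leaving out 1 library gave 1 to 2. For the interaction it was 0, and 0 to 2 without 1 library. The counts with TGF-β1 stayed within 21 to 28 in control cells (23 in the analysis reported) and 25 to 30 in silenced cells (27). Of the values for single members, 68 for silencing with TGF-β1 lost their call and 166 kept it. Same-numbered libraries of different groups deviated together with correlations of -0.105 to 0.073, and differently numbered ones with -0.173 to 0.145. No pairing by number was visible, though with 3 libraries per group this check cannot exclude one. With the replicate block 15 members were called for silencing with TGF-β1, 1 without it, 23 and 27 for TGF-β1 in control and silenced cells, and 0 for the interaction. Over all genes tested, DESeq2 called 875 against 1340 for silencing with TGF-β1, and the block 54 against 104 for the interaction.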
